A study of Homo sapiens with 7 samples.

Results

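Promoter contacts were compared gene by gene between Ishikawa, a human endometrial adenocarcinoma line, and T-47D, a human breast carcinoma line, using loops from H3K27ac HiChIP. This assay joins DNA ends that lie close together in the nucleus and enriches for DNA carrying acetylated lysine 27 of histone H3. Of 19229 autosomal protein-coding genes, 13952 had a promoter loop in 1 or both lists (14939 across the 3 cell lines of the series, LNCaP included), and 5277 had none in either. The 19229 genes were not chosen by their values, whereas many of those named below were. Each gene was credited with every read pair of loops with an anchor on a 500 bp window around any of its annotated start sites. The Ishikawa list combined 4 samples, 2 treated with 10 nM 17β-estradiol (E2) for 1 h and 2 with DMSO as vehicle, whereas the T-47D list came from 1 sample whose treatment the labels do not give. Enzyme (DpnII against MboI), sonication, read length and depth followed the cell line, so these and the line cannot be told apart. With 1 list per line no difference has a replicate error or a test, and both lists average over many cells, so fewer cells with a contact and fewer contacts per cell cannot be told apart.

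H3K27ac marks active promoters and enhancers, and a HiChIP loop between an acetylated promoter and a distal acetylated region is the usual evidence that an enhancer lies close to that promoter. Both lines carry estrogen receptor α, encoded by ESR1, a hormone-dependent transcription factor. In luminal breast cells it acts beside FOXA1, which opens chromatin, and GATA3. Endometrial epithelium derives from the Müllerian duct, whose cells use PAX8, EMX2, SOX17 and HOXA genes.

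The sequences below show 2 promoters that had loops in only 1 of the lists and the estrogen response elements found in the anchors of 4 estrogen-related genes. The 250 bases before the canonical start site of FOXA1 (chr14:38064455-38064704, GRCh37, minus strand) and of PAX8 (chr2:114036499-114036748, minus strand) are printed 5′ to 3′, with the letters GGGCGG (a GC box, either strand) in capitals.
FOXA1: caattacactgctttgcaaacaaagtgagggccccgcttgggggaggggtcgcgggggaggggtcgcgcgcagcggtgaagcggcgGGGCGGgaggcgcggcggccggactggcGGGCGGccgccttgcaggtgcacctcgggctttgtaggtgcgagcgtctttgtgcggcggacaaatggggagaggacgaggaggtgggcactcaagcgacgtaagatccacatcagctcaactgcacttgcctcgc
PAX8: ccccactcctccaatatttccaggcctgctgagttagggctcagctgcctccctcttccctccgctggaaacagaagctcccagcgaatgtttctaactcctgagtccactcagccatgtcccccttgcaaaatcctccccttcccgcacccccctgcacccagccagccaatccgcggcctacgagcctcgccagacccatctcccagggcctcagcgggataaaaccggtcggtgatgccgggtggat
The FOXA1 window held 2 such matches and the PAX8 window none, and 58.9% of the 19229 promoters held 1 or more in a window of this length. The GC content was 67.2% for FOXA1 and 61.6% for PAX8. All 25 T-47D loops of FOXA1 (902 read pairs) left the anchor over this start site, and in Ishikawa 7 of the 14 loops of PAX8 (95 of 162 read pairs) met the anchor over its start site.

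The palindromic estrogen response element, GGTCA and TGACC separated by any 3 bases, was searched for across the full length of every loop anchor of ESR1, PGR, GREB1 and TGFA. The 4 matches lay in contacts of GREB1 and TGFA and are printed on the plus strand with the element in capitals.
GREB1, chr2:11653016-11653068: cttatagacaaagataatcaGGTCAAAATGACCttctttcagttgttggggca
GREB1, chr2:11664706-11664758: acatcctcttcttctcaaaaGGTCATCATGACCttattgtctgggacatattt
GREB1, chr2:11672640-11672692: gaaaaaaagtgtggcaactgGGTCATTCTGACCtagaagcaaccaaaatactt
TGFA, chr2:70843530-70843582: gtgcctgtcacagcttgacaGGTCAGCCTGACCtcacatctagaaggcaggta
The 3 GREB1 elements lie in an intron of GREB1, 21.1, 9.45 and 1.51 kb upstream of the canonical start site. The nearest was contacted in both lists, by 2 loops with 134 read pairs in T-47D and 2 loops with 45 read pairs in Ishikawa, whereas the other two were contacted in Ishikawa only. The TGFA element lies in an intron of ADD2, 62.6 kb upstream of the TGFA start site, and was contacted in both lists, by 14 T-47D and 21 Ishikawa read pairs. The anchors of ESR1 and PGR held no match. Of all anchors, 0.569% held the element in T-47D and 0.572% in Ishikawa, with 2.01 and 0.970 elements per Mb of anchor, respectively.

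The T-47D list held 40880 loops with 337268 read pairs and the Ishikawa list 162728 loops with 1035188. Counts were scaled to RPM, read pairs per 1000000 of the list's read pairs, so that 1 read pair was worth 2.97 RPM in T-47D and 0.966 RPM in Ishikawa. Promoter loops carried 72.8% of the T-47D read pairs but 37.1% of the Ishikawa read pairs, and promoter anchors had a median width of 2.85 kb in T-47D and 5.47 kb in Ishikawa. The T-47D promoter loops spanned a median of 91.9 kb and the Ishikawa promoter loops 43.9 kb. The Ishikawa list is made of 4 separately sorted parts with 89773 to 439779 read pairs, which the labels do not tie to samples, so the range over parts is given where it bears on a gene, and DMSO and E2 were not compared.

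A total of 7239 genes had promoter loops in both lists, 51.9% of those looped in either, while 2479 were looped only in T-47D and 4234 only in Ishikawa. Differences are given as log2(T-47D RPM + 1) minus log2(Ishikawa RPM + 1), so positive values mean more promoter read pairs in T-47D. Over the 7239 genes looped in both lists the median difference was 1.72, with quartiles of 0.19 and 3.24. Over genes, the read pairs of the lists had a Spearman rho of 0.291 among all 19229, 0.0828 among those looped in both and -0.343 among the 9073 measured genes, which had 20 or more read pairs in 1 or both lists. These correlations are descriptions over genes that share libraries and neighbours, and requiring a high value in 1 list lowers the last of them by construction.

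Among the 9073 measured genes, 3812 (42.0%) were at least 4-fold higher in T-47D and 1599 (17.6%) at least 4-fold higher in Ishikawa, counting each list as at least 3 read pairs per gene. The remaining 3662 genes were not called. The direction of this split depended on the scale. Scaled to the read pairs of promoter loops alone, 3018 genes were higher in T-47D and 3041 in Ishikawa, with a median difference of 0.81 over the genes looped in both lists. After centring on the median difference of 1.72, the numbers were 2436 and 3469. Counting only loops to anchors without a promoter gave 1389 and 1516, and cutting every anchor to 2.5 kb around its centre gave 4443 and 686. Of 5411 calls, 4374 were kept with cut anchors, 10 turned to the other direction and the rest were lost. With 1 start site per gene 4170 were kept and 14 turned. A gene with no loop in T-47D needed 40 Ishikawa read pairs to be called, against 20 T-47D read pairs in the reverse case. Of the genes called higher in T-47D, 1114 had no Ishikawa promoter loop, and of those called higher in Ishikawa, 1231 had no T-47D promoter loop.

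**Figure D1:**
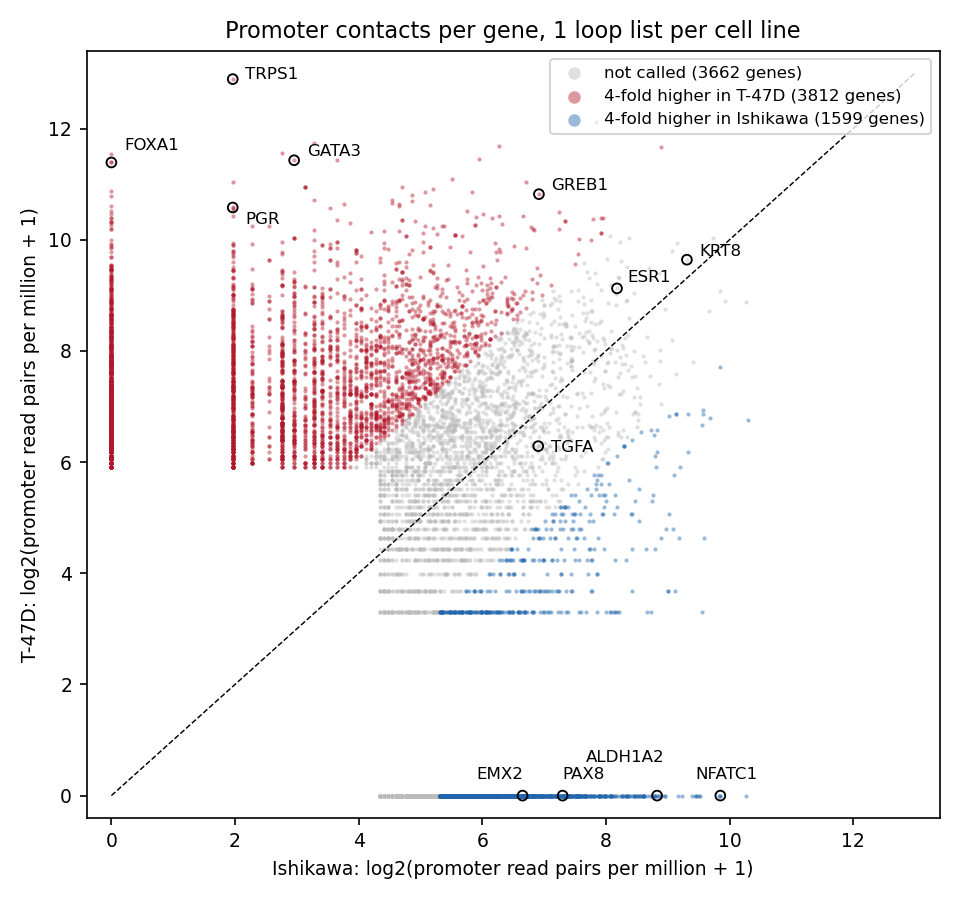
Promoter read pairs per gene on the log2(RPM + 1) scale in Ishikawa (x axis) and T-47D (y axis) for the 9073 measured genes, 1 point per gene, with colours marking the 3812 genes called higher in T-47D and the 1599 called higher in Ishikawa. TRPS1, FOXA1, GATA3 and PGR lie at the top left, PAX8, EMX2, ALDH1A2 and NFATC1 on the lower edge, and ESR1, KRT8 and TGFA near the dashed line of equal values.

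Chromosomes 3, 10 and 12 were also set apart. Outside them, 3388 of 7408 measured genes (45.7%) were called higher in T-47D and 1073 (14.5%) higher in Ishikawa. On those 3 chromosomes the numbers were 424 of 1665 (25.5%) and 526 (31.6%). When these chromosomes were also left out of the totals, the remaining ones gave 3148 and 1452. By chromosome, the share called higher in T-47D was highest on chromosome 11 (378 of 597, 63.3%) and lowest on chromosome 18 (9 of 102, 8.82%). The share called higher in Ishikawa was highest on chromosome 12 (279 of 711, 39.2%), followed by chromosome 18 (37 of 102, 36.3%) and chromosome 10 (149 of 414, 36.0%). Chromosome 3 had 207 genes higher in T-47D and 98 higher in Ishikawa among 540, closer to the whole set than chromosomes 10 and 12 were.

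**Figure D2:**
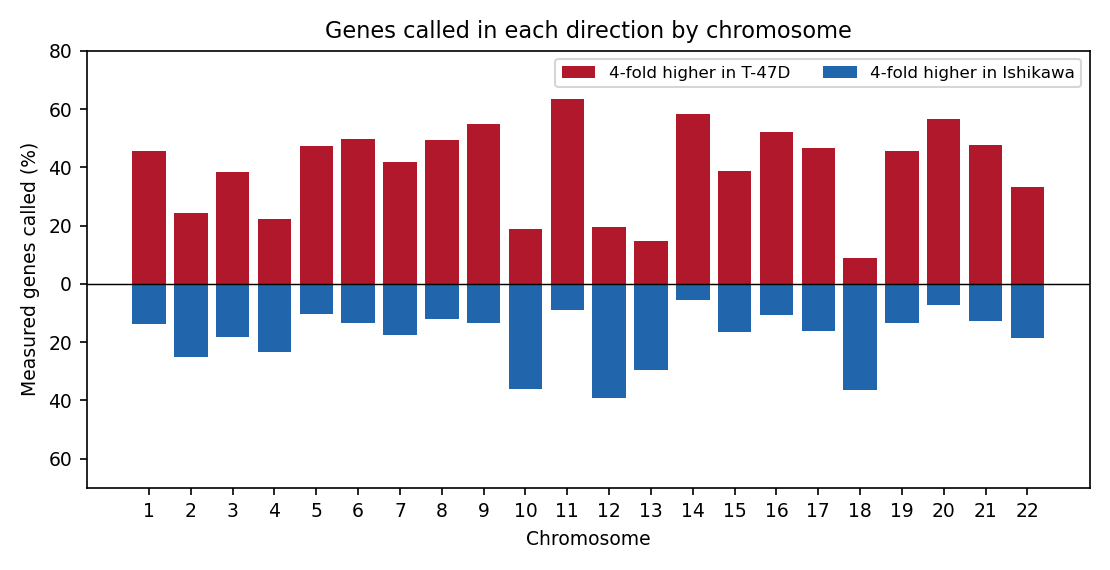
Percent of the measured genes of each autosome called at least 4-fold higher in T-47D (bars upward) or in Ishikawa (bars downward). Ishikawa bars exceed T-47D bars on chromosomes 2, 4, 10, 12, 13 and 18, with the widest gap on chromosome 18 (36.3% against 8.82%).

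The genes furthest toward T-47D outside those chromosomes included the luminal transcription factors TRPS1 and FOXA1. TRPS1, a GATA-family repressor on chromosome 8, had 2557 read pairs in 91 loops in T-47D and 3 read pairs in 1 loop in Ishikawa, an RPM ratio of 2616 with a 95% interval of 894 to 12694. All intervals here are exact binomial intervals of the share of read pairs, and they cover counting error only, since each line has 1 list. They treat read pairs as independent molecules, which any copies made by PCR would not be. FOXA1 had 902 read pairs in T-47D and no Ishikawa loop, at least 923-fold higher when Ishikawa is counted as 3 read pairs. That bound concerns listed loops, since loops under 3 read pairs were removed before deposit. TTC6 shares the FOXA1 anchor and all of its loops, so FOXA1 and TTC6 cannot be separated. MIPOL1, the neighbour whose promoter was the strongest T-47D partner of FOXA1 (203 read pairs), had 520 T-47D and 3 Ishikawa read pairs.

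Hormone receptor genes were also among them. PRLR, the prolactin receptor, had 705 T-47D read pairs and 3 in Ishikawa, a 721-fold ratio (246 to 3506). PGR, the progesterone receptor and a textbook ESR1 target, had 517 and 3, a 529-fold ratio (180 to 2573). Its T-47D contacts lay mostly upstream, the strongest with 124 read pairs at -216 kb from the start site and further ones with 53, 47, 47 and 41 at -197, -169, -313 and -307 kb, negative values being upstream. The 1 Ishikawa loop lay 53.8 kb downstream and none of the 23 T-47D loops had a counterpart in Ishikawa.

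The other genes of this group were ANAPC2 (1010 read pairs in T-47D), a subunit of the anaphase-promoting complex, SSNA1 (630), EDN1 (594), which encodes endothelin-1, and TYRP1 (524), a melanosomal enzyme, all with no Ishikawa loop, and the linker histone gene H1-2 (499 against 3). ANAPC2 and SSNA1 are neighbours on chromosome 9, within a run of 21 consecutive measured genes called higher in T-47D. With anchors cut to 2.5 kb the calls of FOXA1, TTC6, TYRP1 (also lost with only its 5′ end) and H1-2 were lost. The difference of H1-2 was then -1.96, the value of 3 Ishikawa read pairs against none in T-47D. The T-47D anchor of FOXA1 is 18.7 kb wide.

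On chromosomes 3, 10 and 12 the same rule gave MED13L, a Mediator subunit (1021 read pairs in T-47D against 6), HOXC11 (494 against 0), GATA3 (932 against 7) and MAP6D1 (463 against 3). GATA3, which sustains luminal identity, was 409-fold higher in T-47D (198 to 1019). Its strongest T-47D loop, 214 read pairs, joined start sites of the gene itself. Next came 2 loops with 137 and 82 read pairs to an anchor 1146 kb downstream, and the median span of its 57 loops was 858 kb. The 1 Ishikawa loop of GATA3 lay at -37.5 kb with 7 read pairs. Counting only the gene's 5′ end as its start site lost this call. That window met the Ishikawa anchor with 7 read pairs but no T-47D anchor of GATA3, which gave a difference of -2.96. HOXC11 lost its call with cut anchors.

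The genes furthest toward Ishikawa outside chromosomes 3, 10 and 12 were NFATC1, an immune and developmental transcription factor, with 955 read pairs, the myelin protein gene MBP with 764, AL590452.1 with 749, MYO15B with 731, the kinase gene CDK3 with 726, the phosphatase gene CTDP1 with 624, ALDH1A2 with 469, the desaturase-like FADS6 with 454 and SH2D6 with 441. None of these 9 had a T-47D promoter loop, which puts them at least 47.9-fold (SH2D6) to 104-fold (NFATC1) higher in Ishikawa. DLGAP2, a synaptic scaffold gene on chromosome 8, had 577 read pairs in Ishikawa against 4 in T-47D, a 47-fold ratio (18.3 to 173). Each of the 10 had loops in all 4 parts of the Ishikawa list. For NFATC1 the parts ranged from 762 to 1248 RPM, and for ALDH1A2 from 421 to 524.

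Positions were shared among them. NFATC1, MBP and CTDP1 lie near the end of chromosome 18 (74690783 to 77514503), and MYO15B, CDK3 and FADS6 lie together on chromosome 17 (72873431 to 74002080). ALDH1A2, on chromosome 15 (58245622 to 58790065), encodes an enzyme that makes retinoic acid and stood without such neighbours. Their widest promoter anchors measured 9.29 to 30.1 kb, and with anchors cut to 2.5 kb the calls of AL590452.1, CDK3, FADS6 and MBP were lost. The call of MYO15B was lost when only the gene's 5′ end was counted. On chromosomes 3, 10 and 12 the leading genes were CFAP46 (1277 read pairs), ATN1 (949), NT5C2 (940) and the mucin gene MUC4 (776), with 0, 0, 0 and 3 in T-47D. MUC4 lost its call with cut anchors. Its difference was then 3.31, the value of 3 T-47D read pairs against none in Ishikawa. CFAP46 lost its call when only its 5′ end was counted.

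ESR1 itself lay within 4-fold. It had 188 read pairs in 31 loops in T-47D (557 RPM) and 299 read pairs in 33 loops in Ishikawa (289 RPM, 241 to 395 in the parts), a difference of 0.95 and a 1.93-fold ratio (1.6 to 2.32). The sign of that difference rested on the scale: it was -0.023 when scaled to promoter read pairs and -0.78 after centring. The lists differed in which ESR1 promoter carried the loops. The anchor over the canonical start site (chr6:152128817) had 53 of the 188 T-47D read pairs and 213 of the 299 Ishikawa read pairs, in an Ishikawa anchor 23.8 kb wide. The anchor over start sites 117 kb upstream had 114 in T-47D and 62 in Ishikawa, where loops between these anchors count for both. Counting only the gene's 5′ end, the difference became 3.58. It rests on 31 T-47D and 7 Ishikawa read pairs of anchors centred 151 and 153 kb upstream of the canonical start, not on the canonical promoter.

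Contacts of ESR1 were partly shared. Of 31 T-47D loops, 7 had a counterpart in Ishikawa with both anchors overlapping, and of 33 Ishikawa loops, 5 had a counterpart in T-47D. Both lists joined the upstream promoter to a region upstream of the canonical start, with 21 and 9 read pairs in T-47D (chr6:152001260-152002869 and chr6:151995846-151998199) and 24 in Ishikawa (chr6:151995849-152006675). In Ishikawa the same region also had the strongest ESR1 loop, 35 read pairs from the canonical promoter, against 3 in T-47D. T-47D contacts reached anchors over the promoters of CCDC170, ARMT1, RMND1 and ZBTB2 upstream, and Ishikawa contacts reached anchors over RMND1 and CCDC170. Ishikawa also had a cluster from -76.2 to -14.5 kb that had no T-47D counterpart.

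**Figure D3:**
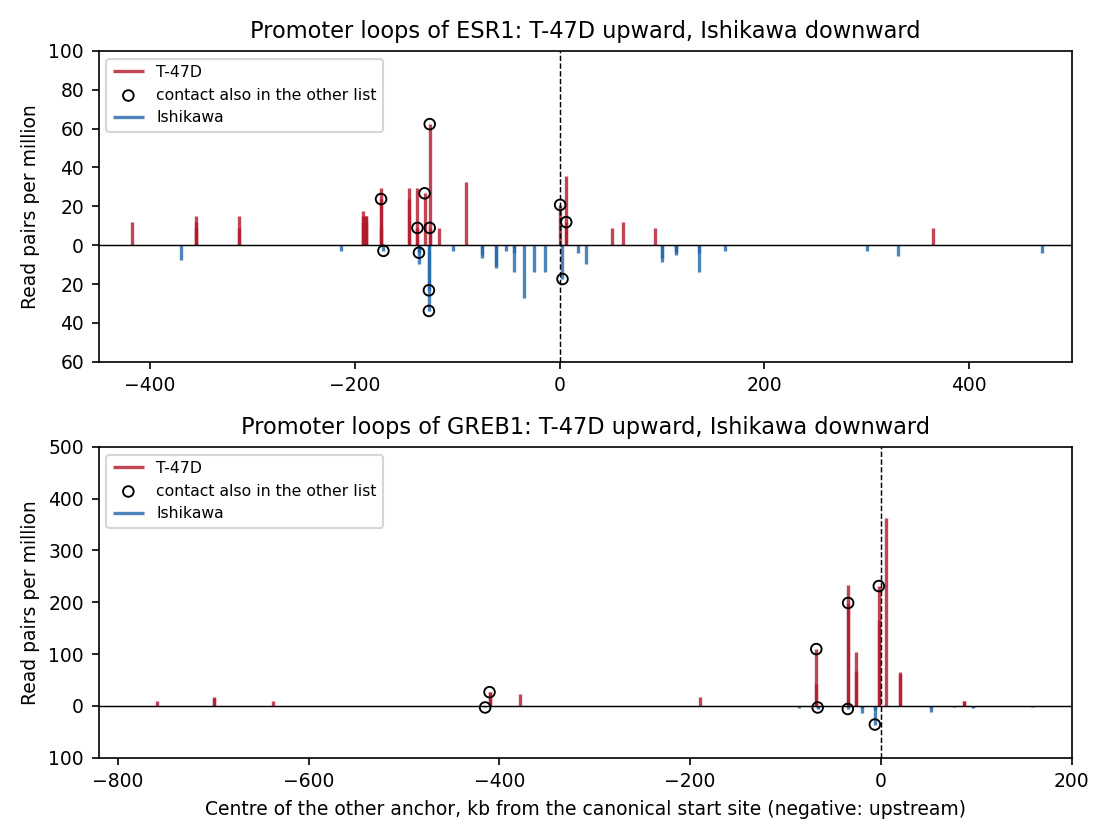
Promoter loops of ESR1 (top) and GREB1 (bottom): x axis, centre of the other anchor in kb from the canonical start site, negative upstream; y axis, RPM, T-47D upward and Ishikawa downward. Open circles mark loops whose 2 anchors both overlap those of a loop of the gene in the other list, 7 of 31 T-47D and 5 of 33 Ishikawa loops for ESR1 and 4 of 21 and 4 of 17 for GREB1.

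GREB1, an ESR1 target and coactivator, had 609 read pairs in T-47D (1806 RPM) and 124 in Ishikawa (120 RPM, 33.4 to 168 in the parts), a 15.1-fold ratio (12.4 to 18.4). Its strongest T-47D loop joined 2 anchors over its own start sites with 122 read pairs, centred 52.8 kb upstream and 5.35 kb downstream of the canonical start, which no promoter anchor of GREB1 covered in either list. In all, 4 of its 21 T-47D loops had a counterpart in Ishikawa. The contact at -2.24 kb from the canonical start, which holds the nearest element printed above, was in both lists, where 78 T-47D read pairs stood against 37 in the matching Ishikawa loop. TGFA, which encodes an EGF receptor ligand, had 26 T-47D and 123 Ishikawa read pairs, a difference of -0.62 and a 1.54-fold ratio (1.00 to 2.45). Of its 3 T-47D loops, 2 were also in Ishikawa, including the one to the element in ADD2.

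PEG10, an imprinted retrotransposon-derived gene, had too few read pairs to be measured (11 in T-47D and 10 in Ishikawa). SPDEF, a luminal ETS factor, had 88 and 0. PAX8 had 0 in T-47D and 162 in Ishikawa (91.0 to 261 RPM in the parts), at least 17.6-fold higher in Ishikawa. EMX2 had 0 and 103, at least 11.2-fold. SOX17 had 0 and 27, under the 40 needed for a call. Its Ishikawa loops came from 3 of the 4 parts. With anchors cut to 2.5 kb PAX8 and EMX2 lost their calls.

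Gene lists were described by counts of called members beside the shares over all measured genes (42.0% and 17.6%) and their median of 1.07. Unlike the calls, the medians did not count each list as at least 3 read pairs, so genes without a loop in 1 list weigh heavily. With a pseudocount of 10 RPM they were -2.20 for Müllerian and endometrial, -1.925 for mesenchymal, -1.97 for basal and -2.32 for HOX genes. The luminal breast median was then 3.77. Counts on other settings have other shares beside them. These were 33.3% in T-47D and 33.5% in Ishikawa when scaled to promoter read pairs, and 26.8% and 38.2% after centring. With anchors cut to 2.5 kb they were 62.6% and 9.67%. Of 27 measured luminal breast genes, 17 were higher in T-47D, 2 in Ishikawa and 8 were not called, with a median difference of 3.97. Beside TRPS1, GATA3, FOXA1 and PRLR, the 17 held ANXA9, AGR3 and AGR2 with no Ishikawa loop and 224, 169 and 133 T-47D read pairs, and ERBB2 with 392 against 117. The 2 luminal genes higher in Ishikawa were the keratin gene KRT18 (0 against 266) and AFF3 (3 against 41). The neighbouring KRT8, whose protein pairs with that of KRT18, had 269 and 656 and a difference of 0.33. TFF1, TFAP2B and CA12 had no promoter loop in either list.

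The Müllerian and endometrial list ran the other way, with 9 of 18 measured members higher in Ishikawa, 3 in T-47D and a median of -5.21. FOXJ1, a regulator of cilia, had 204 Ishikawa read pairs, MUC16 had 116, and HOXA9 and HOXA10 shared 1 anchor with 88, all without a T-47D loop. The 3 genes higher in T-47D were NR2F2, a nuclear receptor, with 151 against 0, the homeobox gene MSX2 with 102 against 0, and KLF9 with 44 against 25. With cut anchors 3 of 9 measured members were called in each direction.

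**Figure D4:**
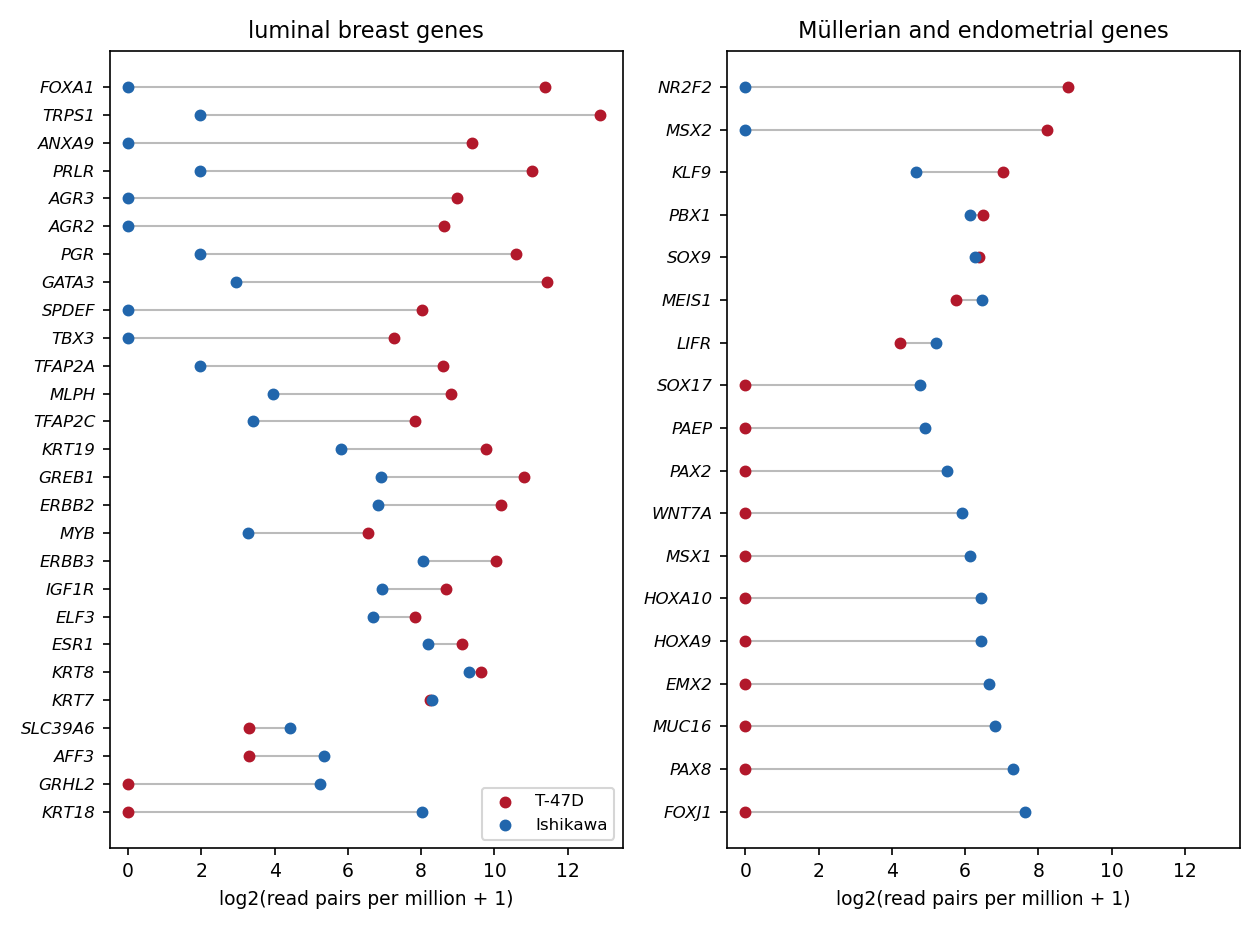
Promoter read pairs on the log2(RPM + 1) scale of the measured luminal breast genes (left, 27) and Müllerian and endometrial genes (right, 18), 1 line per gene, T-47D in red and Ishikawa in blue, ordered by the difference. In the left panel 17 genes are called higher in T-47D and in the right panel 9 are called higher in Ishikawa, and points at 0 are genes with no loop in that list.

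Estrogen response genes were higher in T-47D in 22 of 39 cases and in Ishikawa in 4, with a median of 2.60. After centring the numbers were 16 and 9 and the median 0.88. RARA, a retinoic acid receptor, had 1109 T-47D and 79 Ishikawa read pairs, and STC2, a secreted glycoprotein gene, had 491 and 55. The 4 higher in Ishikawa were ALPP (0 against 72), the cytokine gene LIF (0 against 64), ABHD2 (3 against 62) and the histone demethylase gene KDM4B (3 against 51). Of 38 nuclear receptors and coregulators, 15 were higher in T-47D and 9 in Ishikawa (39.5% and 23.7%). Their median of 0.61 turned to -0.35 when scaled to promoter read pairs and -1.11 after centring. RARG (353 against 341) and the vitamin D receptor gene VDR (80 against 310) were within 4-fold, while PPARG was looped only in Ishikawa (159).

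Of 16 measured growth factor receptors and ligands, 3 were higher in T-47D and 2 in Ishikawa, and 11 were not called, among them FGFR2 (48 against 387, difference -1.39) and ERBB3 (359 against 276, 1.99). The 2 higher in Ishikawa were HBEGF (6 against 104) and INSR (5 against 80). The list's median of 1.04 was 0.08 when scaled to promoter read pairs and turned to -0.69 after centring. Of 17 measured G1 cell cycle genes, 12 were higher in T-47D (median difference 3.49), led by CCND1, the cyclin D1 gene (420 against 82). CDKN1B (6 against 224) and CDK6 (3 against 136) were the 2 higher in Ishikawa. Of 57 measured genes for cytosolic ribosomal proteins and their paralogues, 43 (75.4%) were higher in T-47D and 0 in Ishikawa, with a median of 3.85, and RPL7A (172 against 3) and RPL23A (171 against 13) were examples. After centring 30 were higher in T-47D and 1 in Ishikawa.

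Epithelial genes were called in T-47D in 10 of 21 cases and in Ishikawa in 1 (median 1.92), and 8 and 3 after centring, with EHF (474 against 66) and JUP (252 against 44) highest among those called. AP-1 and immediate early genes gave 9 of 20 and 1 (median 1.86), but 7 and 4 when scaled to promoter read pairs and 6 and 6 after centring (median 0.13), with KLF6 (215 against 3) toward T-47D and NR4A2 (3 against 48) toward Ishikawa. Chromatin loop proteins gave 7 of 12 and 1 (median 2.37), and 4 and 2 after centring, with BRD2 (194 against 7) and YY1 (139 against 13) toward T-47D and the cohesin subunit gene SMC3 (0 against 139) toward Ishikawa. CTCF, the insulator protein gene, had 98 and 111, a difference of 1.43.

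Lists of markers of other cell types were counted in the same way. Mesenchymal and stromal genes summed to 199 RPM in T-47D and 243 in Ishikawa over 18 genes, with 7 not looped in either list, PDGFRA, PDGFRB, DCN, LUM and TWIST1 among them. N-cadherin, CDH2 (0 against 76), and COL1A2 (0 against 53) were called in Ishikawa and COL1A1 (58 against 9) in T-47D. The median over the 6 measured was -4.86. With Ishikawa thinned to the T-47D total only 2 were measured, with a median of 0.40. Basal genes gave 3 of 8 in Ishikawa and 0 in T-47D (median -4.91), namely KRT5 (0 against 174), CNN1 (0 against 65) and TP63 (0 against 52). KRT5 and KRT18 lie on chromosome 12 and TP63 on chromosome 3. Of 11 immune genes, 6 were not looped in either list, CD3D, CD14 and SPI1 among them, and the 2 measured were called 1 in each direction, the integrin gene ITGAM (0 against 51) in Ishikawa. Of 3 measured prostate genes, TMPRSS2 (18 against 231) and ACP3 (0 against 49) were called in Ishikawa, and KLK2 and HOXB13 were not looped. Their median was -2.04, and with cut anchors the 1 gene still measured had a difference of 0.32.

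**Figure D5:**
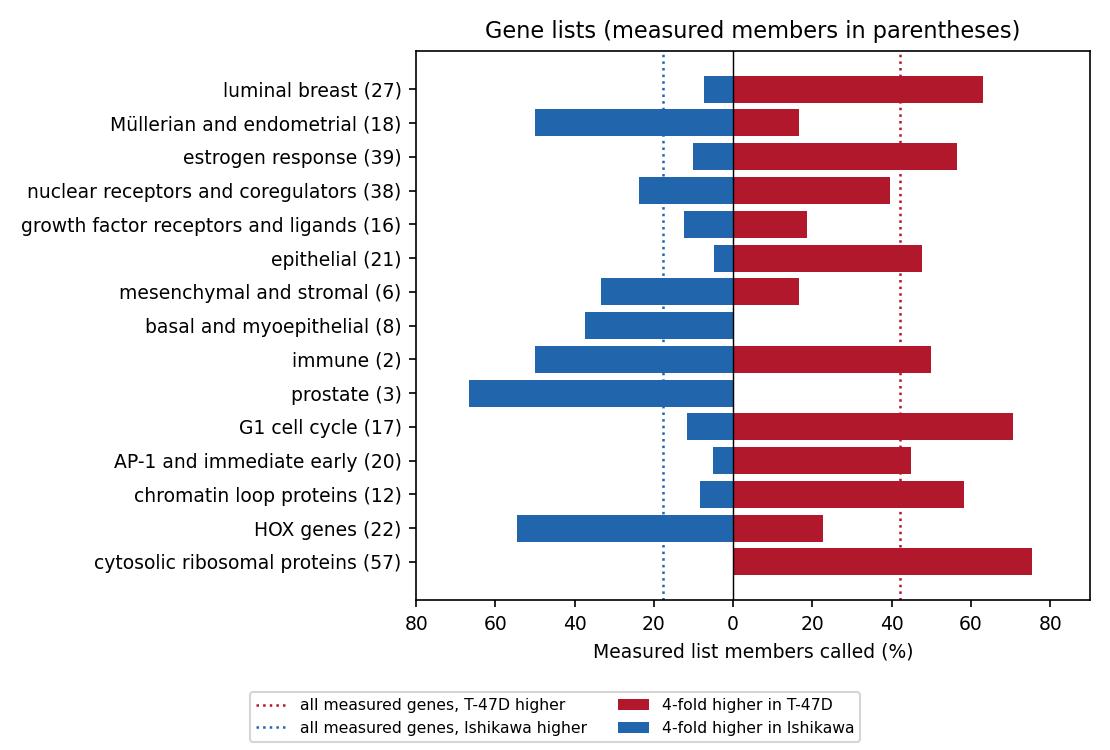
Percent of the measured members of 15 gene lists called at least 4-fold higher in T-47D (red, right) or Ishikawa (blue, left), with the number measured in parentheses and dotted lines at the shares over all 9073 measured genes (42.0% and 17.6%). Luminal breast (63.0%), G1 cell cycle (70.6%) and ribosomal protein genes (75.4%) lie right of the T-47D line. So do chromatin loop (58.3%), estrogen response (56.4%), epithelial (47.6%) and AP-1 genes (45%). Müllerian and endometrial (9 of 18) and HOX genes (54.5%, but 1 of 8 with anchors cut to 2.5 kb) lie left of the Ishikawa line. Prostate (2 of 3), basal (3 of 8), mesenchymal (2 of 6) and nuclear receptor genes (23.7%) do too, and immune genes (1 of 2 each way) pass both lines.

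The HOX clusters, which pattern the body axis and the Müllerian duct, differed from each other. All 5 measured HOXA genes and 2 of 3 measured HOXD genes were called higher in Ishikawa, and HOXA7, HOXA9 and HOXA10 had 88 read pairs each against 0. HOXB genes gave 3 in Ishikawa and 1 in T-47D, with 262 Ishikawa read pairs shared by 6 genes under 1 anchor 50.3 kb wide. HOXC genes gave 4 of 7 in T-47D, HOXC6 (947 against 63), HOXC9 (563 against 23), HOXC11 (494 against 0) and HOXC13 (251 against 0), and 2 in Ishikawa, HOXC8 (0 against 43) and HOXC12 (0 against 41). The median over 22 HOX genes, -4.18, differed between settings, which also changed the number of genes measured. It was 1.07 over 17 genes when read pairs were divided among the genes of an anchor. With Ishikawa thinned to the T-47D total it was 0.92 over 12 genes. It was 0.86 over 8 genes by numbers of loops and 7.69 over 8 genes with anchors cut to 2.5 kb.

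Calls of 1 direction lay in runs of neighbouring genes. Neighbours can share loops, so the genes of a run are not separate observations, and the number of distinct sets of loops is given as sets. Of promoter read pairs, 48.7% joined 2 promoter anchors in T-47D and 23.3% in Ishikawa. The longest T-47D run was 26 measured genes (25 sets) from NOXO1 to ELOB on chromosome 16 (2028918 to 2827290). TSC2 and PKD1 were among them, and the median difference was 6.4. This run was followed by 23 genes (21 sets) on chromosome 11 from KDM2A to KMT5B and 21 genes (17 sets) on chromosome 9 from GRIN1 to MRPL41. Chromosome 6 held 2 runs of 17 genes each, TRIM38 to H3C4 (12 sets) and ZNF184 to ZSCAN16 (10 sets). Both runs hold replication-dependent histone genes, a group singled out after its values were seen: of 43 measured on chromosome 6, 37 were higher in T-47D and 5 in Ishikawa, with H2AC4 highest (668 against 8). The longest Ishikawa run was 15 genes (15 sets) on chromosome 12 from M6PR to TMEM52B, with a median of -6.44. It holds KLRB1, CD69 and several CLEC genes of lymphocytes and myeloid cells. Outside chromosomes 3, 10 and 12 the longest were 11 genes on chromosome 8 from DLGAP2 to MFHAS1 and 10 on chromosome 18 from TSHZ1 to SLC66A2.

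Outside chromosomes 3, 10 and 12, the 8 genes with the highest RPM in the lower list and a difference under 0.5 in size were CELSR1, NUP85, CDR2L, GRB2, HOXB3, TMEM104, NFIC and SLC16A5. NUP85, CDR2L, GRB2, TMEM104 and SLC16A5 lie on chromosome 17 between 72772638 and 73401790. FADS6, which was called higher in Ishikawa, lies between the same positions, so near-equal and called genes are mixed there. NFIC, a CCAAT-binding factor, had 81 T-47D and 251 Ishikawa read pairs, a 1.01-fold ratio (0.783 to 1.31). CELSR1, a cadherin of planar cell polarity, had 89 and 318 (1.16-fold, 0.918 to 1.49). Equality here is on 1 scale only, since after centring GRB2 was called higher in Ishikawa, and with cut anchors NFIC, HOXB3 and TMEM104 were called higher in T-47D.

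The distal contacts themselves were compared for genes with enough of them, whatever their totals. Among 262 genes outside chromosomes 3, 10 and 12 with 5 or more loops to anchors without a promoter in each list, a median of 18.2% of the T-47D distal contacts overlapped an Ishikawa distal contact of the same gene, and 87 genes shared none. A median of 55.3% of those T-47D contacts overlapped some Ishikawa anchor, whichever gene it was joined to. Contacts were most alike for DHX8, an RNA helicase gene (5 of 6 T-47D contacts found in Ishikawa), IRF2BPL (8 of 10) and CELSR1 (4 of 5), with the epithelial factor gene ELF3 and RAB11FIP4 tied with the last (4 of 5). ESR1 shared 5 of 13.

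The called genes differed in promoter sequence, which the comparison did not use, in gene length, and in anchor width, which enters it. Promoters of genes higher in T-47D had a median observed over expected CpG of 0.847 and a CpG ratio above 0.6 in 88.1% of cases, against 0.758 and 64.0% for genes higher in Ishikawa and 0.828 and 80.8% for all measured genes. Outside chromosomes 3, 10 and 12 the shares were 87.7% and 65.6%. The T-47D genes were shorter, with a median length of 20.4 kb against 45.9 kb. Length may not be separate from the calls, since every annotated start site along a gene was counted. With 1 start site per gene, 3777 genes were higher in T-47D and 919 in Ishikawa, against 3812 and 1599. The part of gene length in this change was not tested. Start-site windows of 500 bp held the letters TATAAA, either strand, in 6.03% of T-47D genes, 13.3% of Ishikawa genes and 8.11% of measured genes, and GGGCGG in 83.8%, 67.6% and 79.0%. Genes higher in Ishikawa had wide Ishikawa promoter anchors, with a median widest anchor of 10.0 kb against 4.92 kb at genes higher in T-47D that had Ishikawa loops. This width is not separate from the calls, since a wider anchor can meet more start-site windows.

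Distal contacts were read for the same letters in the central 1 kb of each anchor without a promoter. TGTTTAC, the forkhead motif that FOXA1 binds, was present on either strand in 16.9% of the 5000 T-47D anchors joined to genes higher in T-47D and in 17.5% of all 9666 T-47D anchors without a promoter. In Ishikawa it was present in 13.3% of the 9687 anchors joined to genes higher in Ishikawa and in 14.4% of all 76621. The GC content of these sets was 48.3%, 46.9%, 44% and 42.4%. The palindromic estrogen response element was present in 0.5%, 0.404%, 0.155% and 0.121%, respectively, and TGANTCA, the AP-1 motif, in 28.3%, 28.9%, 27.6% and 29.2%.

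Read pairs that join a promoter anchor to itself were not part of the comparison and gave a further readout, scaled per 1000000 of the 305087 such pairs in T-47D and 471555 in Ishikawa. Of 3684 genes called higher in T-47D with such pairs in either list, 97.3% had more in T-47D, against 62.1% of the 8623 measured genes with them. Of 1542 genes called higher in Ishikawa, 94.1% had more in Ishikawa, against 37.9%. Where both lists had them, the median log2 difference was 2.62 for the 1217 T-47D genes, -1.16 for the 344 Ishikawa genes and 1.08 for all 3768. An anchor must exist to hold either kind of read pair, so the readouts are not independent. For GATA3 they were 398 and 0, for FOXA1 692 and 0, for PAX8 0 and 96, and for ESR1 44 and 100.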

How the data were processed

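H3K27ac HiChIP loops of Ishikawa (4 samples, 1 combined list in 4 parts) and T-47D (1 sample) were used. The authors aligned reads to hg19 with HiC-Pro, called loops with hichipper and removed loops under 3 read pairs or above their false discovery threshold. Versions are not given in the sources used here. The deposited values are read-pair counts per loop, not scaled for depth. Anchors follow enriched regions, so their widths differ between lists.

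Autosomal loops between different anchors with a span of 5 kb to 2 Mb were kept, and Ishikawa counts were summed per anchor pair. Counts were added per protein-coding gene over loops meeting a 500 bp window at any of 141551 GENCODE start sites (GRCh37), scaled to read pairs per 1000000 (RPM) and compared as log2(RPM + 1). A loop counts for every gene it meets. A gene with 20 or more read pairs in 1 or both lists was measured. A call was a 4-fold difference with counts under 3 read pairs raised to 3 and 20 or more read pairs in the higher list. Fold intervals are exact Clopper-Pearson 95% intervals. Lists by line were compared without a test, since each line has 1 list. Promoter sequences were read from GRCh37.

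Named genes were the 10 per direction with the largest difference and 50 or more read pairs outside chromosomes 3, 10 and 12, 4 per direction on them, 8 near-equal genes, 13 set genes, up to 4 members per list by read pairs, the longest runs and the 3 genes with the most similar contacts. Other list members were named after their values were seen. Some of these genes are not reported here. The genes, the 15 lists and the rules were chosen with earlier results of these data known. The counting was tested on simulated data. Python 3.11.15, pandas 2.3.3, numpy 2.4.6, scipy 1.17.1, pysam 0.24.0 and matplotlib 3.10.9 were used. The alternatives covered scaling, loop and gene minimums, Ishikawa parts, depth, start-site windows, anchor width, loop partners, span, shared anchors, pseudocount and fold.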

Additional observations from a re-analysis of the deposited data

Results flagged for a closer look

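Loops on chromosome X lay outside the autosomal comparison. The T-47D list held 453 of them with 2644 read pairs, equal to 0.784% of its autosomal read pairs. The Ishikawa list held 92 with 457 read pairs, equal to 0.0442%. These loops drew attention as signal in data that the gene comparison did not use.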

How the results depend on the processing

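Counting loops in place of read pairs moved the counts of called genes most, and the differences have no replicate error. That setting also left only 838 measured genes in place of 9073, so its counts rest on a much smaller set. Of these 838 genes, 34.4% were called higher in T-47D and 3.58% in Ishikawa, beside 42.0% and 17.6% in the main setting. The number of genes higher in Ishikawa (1599) became 3041 scaled to promoter read pairs, 3469 after centring, 787 with Ishikawa thinned to the T-47D total, 919 with 1 start site per gene, 686 with anchors of 2.5 kb, 30 over numbers of loops, 888 with a pseudocount of 10, 3057 at 2-fold and 642 at 8-fold. The number higher in T-47D (3812) became 2436 after centring, 2194 with loops of 10 read pairs or more, 1389 without promoter partners, 288 over numbers of loops and 2043 with a minimum of 50 read pairs. Genes looped in both lists (7239) fell to 4362 and 1793 with loop minimums of 5 and 10 read pairs, 4514 after thinning and 4711 without promoter partners.

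The median difference (1.72) was 0.81 scaled to promoter read pairs, 0 after centring, 1.54 without chromosomes 3, 10 and 12, 1.36 and 1.25 with loop minimums of 5 and 10, 0.99 for loops of at least 2 Ishikawa parts, 0.75 after thinning, 1.66 with a 2 kb window, 2.35 with 1 start site, 2.32 with anchors of 2.5 kb, 1.07 without promoter partners, 1.58 for spans of 20 kb to 1 Mb, 1.94 over numbers of loops and 1.30 with a pseudocount of 10. Without 1 Ishikawa part it ran from 1.47 to 1.70.

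ESR1 (0.95) took values of -0.023 scaled to promoter read pairs, -0.78 after centring, 0.59 without chromosomes 3, 10 and 12, 0.53 and -0.17 with loop minimums of 5 and 10, 0.61 for loops of at least 2 parts, 3.58 with 1 start site, 0.59 for the narrower span and 1.90 over numbers of loops. The value with 1 start site rests on 31 T-47D and 7 Ishikawa read pairs. Spearman's rho over measured genes (-0.343) was -0.368 without chromosomes 3, 10 and 12, -0.429 and -0.528 with loop minimums of 5 and 10, -0.395 for loops of at least 2 parts, -0.258 after thinning, -0.405 with 1 start site, -0.386 with anchors of 2.5 kb, -0.377 without promoter partners, -0.428 for the narrower span, -0.388 with shared anchors divided, -0.600 over numbers of loops, -0.515 with a minimum of 50 and 0.291 with none. Without 1 part it ran from -0.416 to -0.350.

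The median size of the difference over named genes (8.62) was 9.49 and 10.28 with loop minimums of 5 and 10, 4.77 with anchors of 2.5 kb, 6.56 over numbers of loops and 6.05 with a pseudocount of 10. GATA3 had -2.96 with 1 start site, and H1-2 had -1.96 and MUC4 3.31 with anchors of 2.5 kb. These 3 values rest on 7, 3 and 3 read pairs in 1 list and none in the other. Each of these genes lost its call, and no named gene was called in the other direction. The cause of these shifts was not tested. Of 33 named genes that were called, 12 lost their call with anchors of 2.5 kb, and 10 of the 33 had no loop left. No paired analysis was possible because each line has 1 list and no test was run. Depth limits genes with few read pairs: a gene with no loop in the other list needed 20 read pairs in T-47D or 40 in Ishikawa for a call.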
